A study of Mus musculus with 5 samples.

Results

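The genes described here encode the histones, the proteins around which DNA is wrapped in chromatin, and were chosen by gene symbol, with no measured value used. The rule took symbols of the histone clusters (H2ac, H3c, H4c, H1f, Hist1h and the like) and of the variants H2A.X, H2A.Z and H3.3, and found 76 of 34714 sites and 38 of 8034 genes of the deposited table. The samples were C17.2 cells, an established mouse neural stem cell line labelled as CD1 x C57BL/6, whose open chromatin was mapped by ATAC-seq, an assay in which a transposase cuts and tags accessible DNA. The groups were the control at 0 h, in a medium with serum, and cells at 0.5, 1, 1.5 and 2 h in a serum-free medium with N2 supplement, the condition used to induce neural differentiation. Each time had 1 library, all from this single line, so no comparison below has a replicate check and none was tested.

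For each site the table gives a whole number per library, from 0 to 10, in a column named after a BED file. It was read as the number of entries of that file over the site, called entries below. An entry is an interval, not a read, and read depth is unknown. Each gene is represented by the site whose mean over the libraries was highest, and was called covered at 1 or more entries. The sites are points 1 to 12 bp wide, so their values are not summed over gene length.

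Histones fall into a pair of supply lines. Replication-dependent genes, which sit in clusters, lack introns and give mRNAs that end in a stem-loop instead of a poly(A) tail, make the bulk H1, H2A, H2B, H3 and H4 during S phase. Variant or replacement genes, scattered over the genome, make H3.3, H2A.Z and other forms throughout the cell cycle, and cells that have left the cycle, such as neurons, rely on them. By symbol, 31 of the 38 genes were replication-dependent (2 H1, 14 H2A, 10 H3 and 5 H4), 6 were variants, and 1, H3f3aos, is annotated as a transcript opposite to H3f3a. The rule also covered H2B symbols (H2bc), but 0 of the 17 protein-coding H2B genes of the reference were members. Of these 17, 0 had a site of any name within 300 bp.

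The promoters of a few genes follow, 1 for each histone type (H1f2, H2ac20, H3c11 and H4c1). Each belongs to the gene with the widest range of entries among those of its type with a sequence in the table, and ties, which occurred for H2A, H3 and H4, went to the higher mean. A further one is that of H4c11, added after its values were seen, because its entries ran opposite to those of H4c1. Each is the 250 bases before the start that RefSeq annotates in GRCm38.p6, the patch release of the build named in the processing notes, written 5′ to 3′ on the gene's strand. Capitals mark exact letter matches on either strand and at any position. The letters are those of the TATA box (TATAAA), the CCAAT box bound by NF-Y (CCAAT) and the octamer bound by Oct-1 (ATTTGCAT). Those of the AC box of H1 genes (AAACACA) and the GC box (GGGCGG) are marked too. The windows lie at chr13:23738557-23738806 (H1f2, plus strand), chr3:96220881-96221130 (H2ac20, minus strand), chr13:21783398-21783647 (H3c11, minus strand), chr13:23761250-23761499 (H4c1, minus strand) and chr13:21734784-21735033 (H4c11, plus strand).
H1f2: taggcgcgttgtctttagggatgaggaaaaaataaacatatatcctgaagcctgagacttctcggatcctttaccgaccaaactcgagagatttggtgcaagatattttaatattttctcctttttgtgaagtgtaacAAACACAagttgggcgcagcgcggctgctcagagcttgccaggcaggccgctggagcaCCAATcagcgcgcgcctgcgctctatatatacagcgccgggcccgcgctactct
H2ac20: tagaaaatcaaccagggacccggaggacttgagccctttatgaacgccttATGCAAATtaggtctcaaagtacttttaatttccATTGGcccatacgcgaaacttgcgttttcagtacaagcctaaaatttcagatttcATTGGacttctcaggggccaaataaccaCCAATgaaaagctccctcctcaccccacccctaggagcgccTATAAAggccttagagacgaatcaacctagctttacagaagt
H3c11: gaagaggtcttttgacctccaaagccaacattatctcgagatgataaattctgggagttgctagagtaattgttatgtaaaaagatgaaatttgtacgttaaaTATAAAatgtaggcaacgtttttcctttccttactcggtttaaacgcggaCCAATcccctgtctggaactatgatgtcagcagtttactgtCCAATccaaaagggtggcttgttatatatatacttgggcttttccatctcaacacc
H4c1: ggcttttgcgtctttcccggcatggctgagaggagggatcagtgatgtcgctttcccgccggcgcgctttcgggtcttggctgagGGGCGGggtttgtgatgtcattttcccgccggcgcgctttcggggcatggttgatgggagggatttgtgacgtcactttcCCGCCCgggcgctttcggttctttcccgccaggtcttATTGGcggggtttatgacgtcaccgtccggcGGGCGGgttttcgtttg
H4c11: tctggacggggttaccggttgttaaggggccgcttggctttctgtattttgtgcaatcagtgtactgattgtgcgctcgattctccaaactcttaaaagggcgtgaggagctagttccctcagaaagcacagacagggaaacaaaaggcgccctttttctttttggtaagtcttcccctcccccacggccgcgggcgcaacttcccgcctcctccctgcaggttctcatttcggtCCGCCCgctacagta

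A window was found for 31 of the 38 genes, 26 of them replication-dependent. The CCAAT box was in 22 of these 26 (84.6%) and in 33.8% of 32851 windows of the same length, and the TATA box in 11 of 26 (42.3%) against 12.4%. All 12 H2A windows and both H1 windows held CCAAT, but only 1 of 4 H4 windows, that of H4c1, did. All 4 H4 windows held the GC box, against 32.7% of all windows and 2 of 12 H2A windows. The octamer was found in 5 of 12 H2A windows and 1.6% of all windows, and the AC box in both H1 windows and 6.25% of all. A match describes letters only, at any position in the window, and is not a shown binding site. The TATAAA of H2ac20 begins at −42 bp from the start, but that of H3c11 at −147 bp, so the counts do not show working TATA boxes. H2A windows can also reach into the promoter of a neighbouring H2B gene.

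Most histone genes were covered before induction and stayed covered. At 0 h, 31 of the 38 were covered, against 72.8% of all genes. There were 32 in the libraries of 0.5, 1 and 1.5 h, when 76.6%, 72.4% and 79.3% of all genes were covered, and 33 in the last (78.3%). In all 5 libraries 29 were covered (76.3%, with 69% of all genes), and 4 were at 0 throughout (10.5%, with 19.2%). All 6 variants were covered in every library, as were both H1 and all 5 H4 genes, while 8 of 14 H2A and 7 of 10 replication-dependent H3 genes were. Each variant took the highest of 2 to 12 sites, whereas 25 of the 31 replication-dependent genes had a single site, so these shares are not like for like. At the site nearest the start, H1f10 was at 0 in every library, and 29 of the 38 genes were covered at 0 h. Genes gained against 0 h, from 0 entries, numbered 2, 1, 1 and 3 of 38 at the later times in order, where 4.8%, 2.8%, 7.06% and 6.6% of all genes were gained. Genes lost numbered 1, 0, 0 and 1, where 1.01%, 3.17%, 0.523% and 1.03% of all genes were lost. By site the covered number, in order of time, was 51, 54, 54, 61 and 56 of 76, while 47.6%, 58.7%, 51.2%, 66.9% and 65.7% of all sites were covered at these times.

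**Figure D1:**
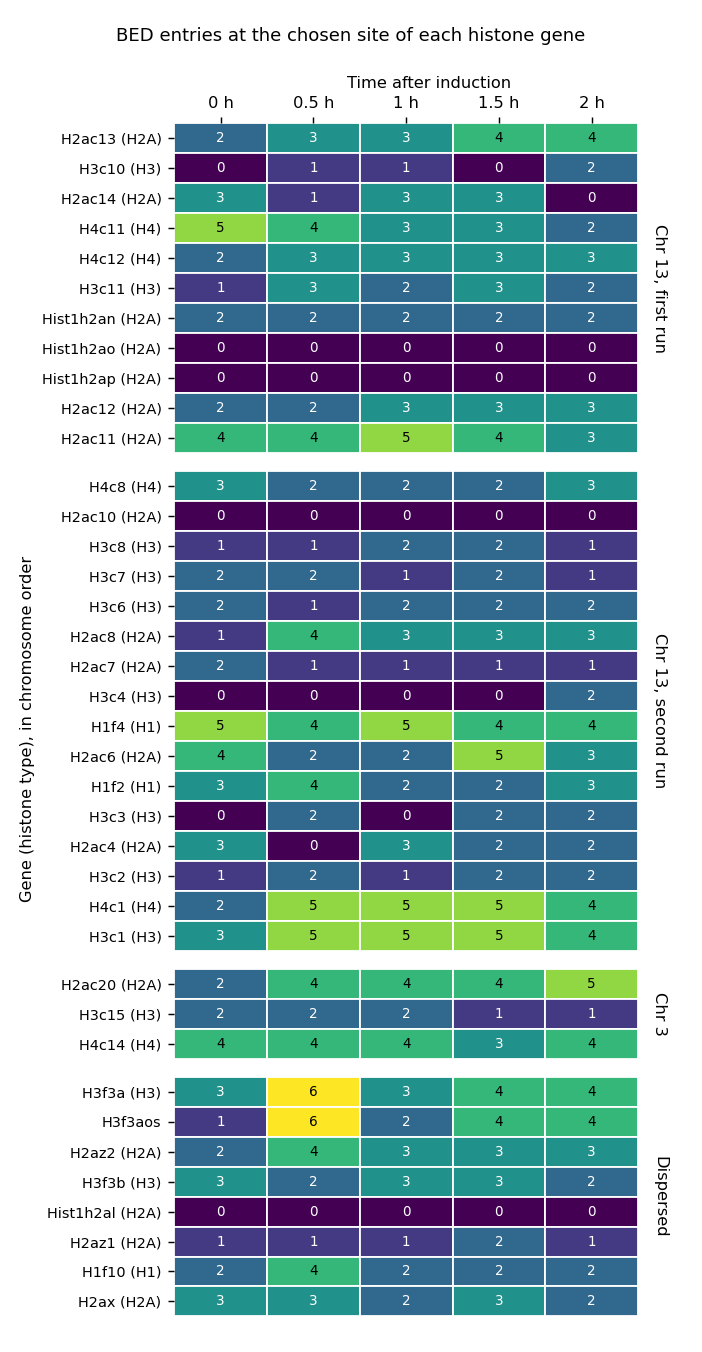
Entries at the chosen site of each of the 38 histone genes (rows, in chromosome order within 3 clusters and a dispersed set) in the library of each time (columns). Colour and number give the same value, from 0 (dark) to 6 (yellow): H1f4 stays at 4 or 5, H4c1 and H3c1 are higher at all later times than at 0 h, H4c11 is lower, and 4 genes are at 0 throughout.

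Linker histone H1 seals the DNA where it enters and leaves the nucleosome. H1f4 had 5, 4, 5, 4 and 4 entries in the libraries of 0, 0.5, 1, 1.5 and 2 h, the order used for all such series, and with H3c1 the highest mean of the replication-dependent genes (4.4). H1f2 had 3, 4, 2, 2 and 3 entries at each of its 3 sites, placed at −55, 1 and 132 bp from the annotated start. Neither gene reached a 2-fold difference from 0 h in any library.

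H2A, which pairs with H2B on the face of the nucleosome, ranged from 0 to 5 entries. Of its 14 replication-dependent genes, 4 were at 0 in every library (H2ac10, Hist1h2al, Hist1h2ao and Hist1h2ap). H2ac11, at the other end, had 4, 4, 5, 4 and 3 entries. H2ac8 had 1 entry at 0 h, 4 at 0.5 h and 3 at each of 1, 1.5 and 2 h. It was the only histone gene at least 2-fold higher than 0 h at all 4 later times (log2 ratio 1.32 at 0.5 h and 1 at the others, as log2 of entries plus 1, which shrinks ratios of genes with few entries). With each library divided by its total over all sites, its log2 ratios were 1.08, 1.01, 0.61 and 0.71, so that it stayed past 2-fold at 0.5 and 1 h only. H2ac20, in the chromosome 3 cluster, had 2, 4, 4, 4 and 5 entries, and H2ac13 had 2, 3, 3, 4 and 4. Both were lowest at 0 h. H2ac20 was highest at 2 h, and H2ac13 at 1.5 and 2 h alike.

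H2ac12 had 2, 2, 3, 3 and 3. Other H2A genes held fewer entries than at 0 h in some later libraries. H2ac4 had 3, 0, 3, 2 and 2 entries, so that the 0.5 h library alone left it uncovered. H2ac14, which RefSeq classes as a pseudogene, had 3, 1, 3, 3 and 0. H2ac6 had 4, 2, 2, 5 and 3, and H2ac7 had 2 at 0 h and 1 at each later time. Hist1h2an had 2 entries in every library, the only histone gene above 0 with an equal value in all 5 (2.63% of the 38, against 11.1% of all genes).

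The H2A sites share a place in the gene that the rule did not use. The chosen sites of all 14 lay 164 to 305 bp downstream of the annotated start, 13 of them on the strand opposite to the gene, and 25 of the 31 replication-dependent genes had a single site. They lie within the transcribed part of a short gene, not in its promoter. In the reference, 10 of the 14 genes had an H2B gene 168 to 249 bp away, and the strands were opposite in the 8 of these whose H2B strand was annotated, the head-to-head arrangement known for H2A and H2B pairs.

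H3, whose tail carries many of the regulated chromatin marks, had the lowest values at 0 h and more entries in total at every later time. The 10 replication-dependent H3 genes summed to 12, 19, 16, 19 and 19 entries, and 7, 9, 8, 8 and 10 of them were covered. With library totals divided out, the later sums were 119%, 125%, 102% and 113% of that at 0 h. No scaled sum over all genes was computed to set beside them. H3c1 had 3, 5, 5, 5 and 4 entries. H3c11 had 1, 3, 2, 3 and 2 and was 2-fold higher at 0.5 and 1.5 h. Listed at 0 at 0 h were H3c3 with 0, 2, 0, 2 and 2 entries, H3c10 with 0, 1, 1, 0 and 2, and H3c4 with 0 until 1.5 h and 2 at 2 h. These are the 3 genes gained at 2 h, and each held at most 2 entries, the lowest steps the table can show. H3c3 and H3c10 were uncovered again in a later library.

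Not every H3 gene held more after induction. H3c7 had 2, 2, 1, 2 and 1 entries, H3c6 had 2, 1, 2, 2 and 2, and H3c15, on chromosome 3, had 2, 2, 2, 1 and 1. H3c8 had 1, 1, 2, 2 and 1, and H3c2 had 1, 2, 1, 2 and 2. As with H2A, 7 of the 10 chosen H3 sites lay inside the gene within a narrow stretch, 228 to 248 bp from its start.

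H4, the least variable core histone in sequence, had 5 genes, and their sum was nearly level, at 16, 18, 17, 16 and 16 entries. That sum hides opposite courses. H4c1 had 2 entries at 0 h, 5 at 0.5, 1 and 1.5 h, and 4 at 2 h (chromosome 13, 23761310 to 23761313), at a site at −62 bp from its start and so inside the promoter window printed above. H4c11 had 5 entries at 0 h, 4 at 0.5 h, 3 at 1 and 1.5 h, and 2 at 2 h (chromosome 13, 21735062 to 21735065), at sites 29 and 125 bp downstream of its start. H4c1 was at the 2-fold threshold at 0.5, 1 and 1.5 h (log2 ratio 1 each) and H4c11 at 2 h (log2 ratio −1). With library totals divided out, H4c1 had log2 ratios of 0.70, 0.98, 0.53 and 0.39, short of 2-fold, and H4c11 had −0.61, −0.68, −1.09 and −1.38. The others moved by at most 1 entry: H4c12 had 2 and then 3 at each later time, H4c8 had 3, 2, 2, 2 and 3, and H4c14 had 4, 4, 4, 3 and 4.

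**Figure D2:**
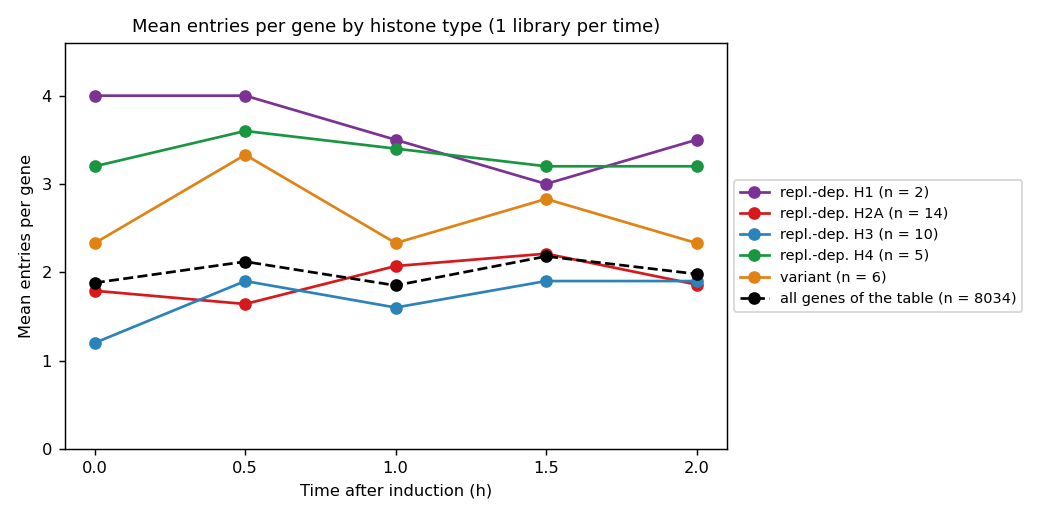
Mean entries per gene (y axis) against time after induction in hours (x axis) for replication-dependent genes of each histone type, the 6 variants and all 8034 genes (dashed), with 1 library per time and so no error bars. At 0 h H1 has a mean of 4 and H3 of 1.2, with all genes at 1.88, and by 2 h H3 (1.9) and H2A (1.86) lie close to all genes (1.98).

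By type, mean entries at 0 h were 4 for H1, 3.2 for H4, 1.79 for H2A and 1.2 for H3, while all genes had a mean of 1.88. At 1.5 h the order was H4 (3.2), H1 (3), H2A (2.21) and H3 (1.9), with 2.18 over all genes. H4 and H1 were above all genes in every library and H3 was below them, as the plot of means by type shows. The H1 and H4 means rest on 2 and 5 genes, and 4 of the 14 H2A genes at 0 lower the H2A mean.

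The variants had their highest sum at 0.5 h. H3f3a, which encodes the replacement histone H3.3, had 3, 6, 3, 4 and 4 entries, and 6 was the highest value of any member, shared with its antisense partner. The antisense transcript H3f3aos had 1, 6, 2, 4 and 4, and was at least 2-fold higher at 0.5 h (log2 ratio 1.81), 1.5 h and 2 h (1.32 each). Their 7 sites lie within 855 bp on chromosome 1 (from 180813244), so the values are not independent. At 0 h this stretch was stepped: 2 H3f3a sites had 3 entries, the third had 0, and the 4 H3f3aos sites had 1 each, whereas all 7 had 6 at 0.5 h and 4 at 1.5 and 2 h. H3f3b, the other H3.3 gene, had 3, 2, 3, 3 and 2 entries, and thus fewer at 0.5 h.

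H2az2, which encodes an H2A.Z found at promoters, had 2, 4, 3, 3 and 3 entries at each of its 5 sites, which span the annotated start. H2az1, the other H2A.Z gene, had 1, 1, 1, 2 and 1. H2ax, whose protein is phosphorylated at DNA breaks, had 3, 3, 2, 3 and 2 at both of its sites. H1f10, a linker variant, had 2, 4, 2, 2 and 2. At their chosen sites the 6 variants summed to 14, 20, 14, 17 and 14 entries. None of these sites was 2-fold different from 0 h in any library (0 of 6, where 22.7% of all genes were in at least 1 later library). This depends on the choice of site. The H3f3a site at −146 bp had 0, 6, 3, 4 and 4 entries, and some H2az1 and H1f10 sites at 0 at 0 h were covered later, all at least 2-fold higher. The total over all sites of the table was 42527, 56773, 45254, 65824 and 59437 entries, above its 0 h value at 2 h too, where the variant sum equalled its own. With these totals divided out, the later variant sums were 107%, 94%, 78.5% and 71.5% of that at 0 h. The chosen sites of all 8034 genes summed to 15095, 17017, 14844, 17498 and 15907 entries. These sums rose less than the total over all sites, and fell at 1 h. Division by that total thus lowers sums over chosen sites of genes in general, and the scaled sums are not read as a fall particular to variants.

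Variants carried 2 to 12 sites each, which shows how entries lie along a gene. In H2az1, sites 100 and 136 bp downstream of the start and the last site at 734 bp were covered in every library. The 9 sites between them, from 326 to 569 bp, were at 0 at 0, 0.5 and 1 h. At 1.5 h 6 of these 9 were covered, with 1 entry at 326 to 380 bp and 2 at 524 to 569 bp, and at 2 h a single one was. H1f10 had 2 covered ends as well: its sites at −156 and 634 bp were covered in every library, those at 38 and 62 bp in none, and that at 445 bp only at 1.5 and 2 h, with 2 entries each. In both genes a stretch with no entry lay between covered ones, and the covered part was longest in the 1.5 h library for H2az1 and in the 1.5 and 2 h libraries for H1f10.

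**Figure D3:**
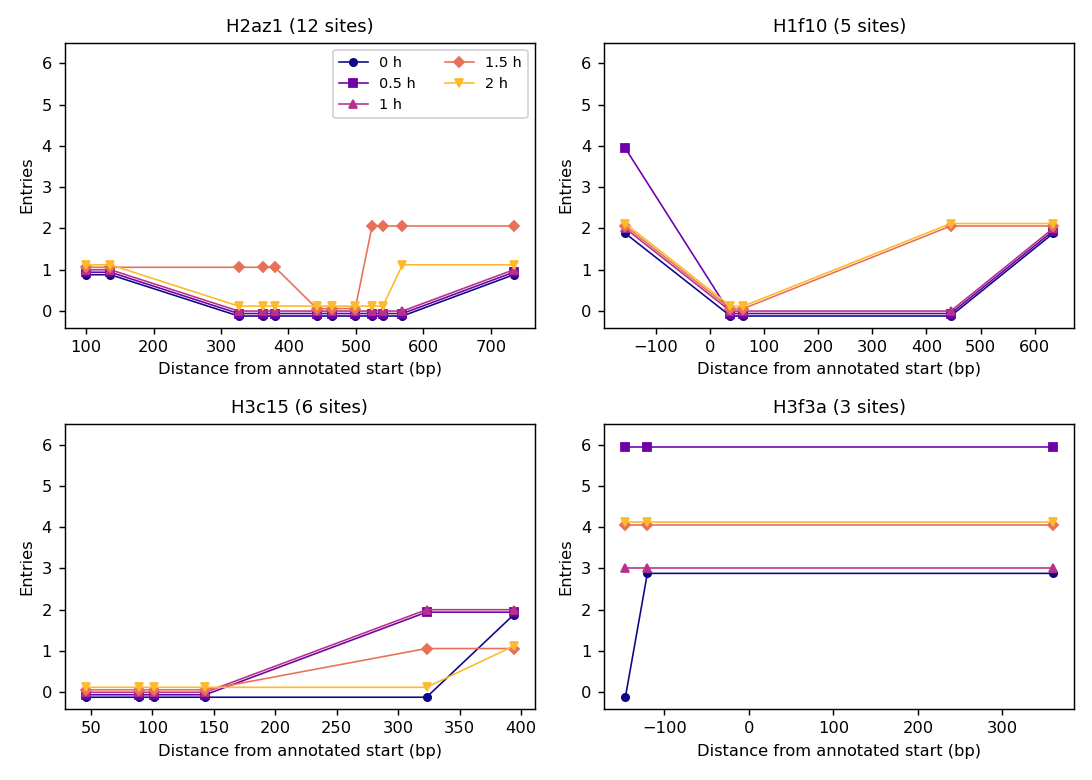
Entries (y axis) at each site against its distance from the annotated start in bp (x axis) for 4 genes with several sites, with 1 line and marker per time; lines are shifted slightly up or down so that equal values can be seen. H2az1 and H1f10 have uncovered sites between covered ones, the 4 sites of H3c15 nearest its start are at 0 in every library, and all H3f3a sites are at 6 in the 0.5 h library.

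Some histone genes exist as near copies, and short reads from such copies cannot always be placed. The sources used here do not say how reads with several matches were treated. The promoter windows of 26 of 31 members shared no stretch of 50 bases with a window elsewhere in the reference. Only the 250 bases before each start were compared. The transcribed part, in which most chosen H2A and H3 sites lie, was not, so a window that shares none does not show a site to be free of copies. Those of Hist1h2ao and Hist1h2ap, both at 0 in every library, shared 118 and 184 of their 201 such stretches with other clustered histone genes, including each other's RefSeq counterparts H2ac23 and H2ac24. H3c15 shared 182 of 201 with H3c14, a near copy on chromosome 3, and its 4 sites from 46 to 143 bp downstream of the start were at 0 in every library. H4c11 and H4c12 shared 29 of 201. H2ac10, also at 0 throughout, shared 0, and Hist1h2al, which RefSeq classes as a transcribed pseudogene, had no window. The part of such copies in the values at 0 was not tested. Hist1h2ao, Hist1h2ap and H3c15 are best read as uncertain, and no member was checked for copies inside its transcribed part.

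By position, 30 of the 38 genes fell into 3 runs with gaps of at most 1 Mb. The first, on chromosome 13 from 21716615 to 22042735, held 11 genes over 326 kb, the second, from 23531438 to 23762146, held 16 genes over 231 kb, and the third, on chromosome 3 from 96220649 to 96263010, held 3 genes over 42 kb. The first chromosome 13 run summed to 21, 23, 25, 25 and 21 entries. The second summed to 32, 35, 34, 39 and 37, with 13, 13, 13, 14 and 15 of its 16 genes covered. The chromosome 3 run had 8, 10, 10, 8 and 10 and was covered at all 3 genes in every library. No run had a sum below its 0 h value in any later library, but with library totals divided out this held at 1 h only, and for 2 of the 3 runs. The scaled sums were then 82%, 112%, 76.9% and 71.5% of that at 0 h for the first run, 81.9%, 99.8%, 78.7% and 82.7% for the second, and 93.6%, 117%, 64.6% and 89.4% for the third. As with the variants, this division lowers sums over chosen sites of genes in general, so no fall particular to histone runs is read from it.

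Neighbouring genes seldom had the same values. Of 28 pairs of neighbouring sites that belong to different member genes, 1 was equal in all 5 libraries, and this pair, Hist1h2ao and Hist1h2ap, was at 0 throughout. The share for pairs of other genes was not computed, so this is not read as particular to histone genes. Of 38 pairs within 1 gene, 27 were equal, including all 24 equal pairs among the 34 at most 200 bp apart, so distance and gene cannot be told apart in that range. H4c1 and H3c1, at the end of the second run, lie 831 bp apart and were equal in 4 of 5 libraries, with a difference of 1 entry at 0 h. H2ac4 and H3c2, 1260 bp apart in the same run, differed in direction at 0.5 h, with H2ac4 at 3 and then 0 and H3c2 at 1 and then 2. H2ac13 and H3c10, 1250 bp apart in the first run, differed by more than 1 entry in each of the 5 libraries. When sites within 500 bp were merged, the members gave 37 regions, so nearly every histone gene counted on its own.

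Against 0 h, more histone genes had more entries than fewer at each later time, as did all genes at 0.5, 1.5 and 2 h but not at 1 h. More entries were held by 15 and fewer by 9 of the 38 at 0.5 h (28.1% and 15.6% of all genes). The numbers were 13 and 7 at 1 h (20.6% and 22%), 16 and 8 at 1.5 h (31.3% and 17.9%), then 15 and 11 at 2 h (25.7% and 22.9%). The median log2 ratio was 0 at each time, both for the 38 and for all genes. With each library divided by its total entries the order turned, with 14, 13, 11 and 13 histone genes higher and 19, 19, 21 and 21 lower in order of the later times. Of all genes 23.1%, 20.6%, 19.7% and 22.7% were then higher and 54.5%, 55%, 60.1% and 56.7% lower. The median log2 ratio of all genes was now −0.08, −0.05, −0.17 and −0.25, and that of the histone genes 0, −0.02, −0.03 and −0.15.

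At least 2-fold higher at 0.5 h were 6 of the 38 (15.8%, against 8.18% of all genes): H2ac8, H3c3, H3c10, H3c11, H4c1 and H3f3aos. H2ac4 and H2ac14 were at least 2-fold lower (5.26%, against 2.19%). At 1 h H2ac8, H3c10 and H4c1 were higher (7.89%, against 4.72%) and 0 were lower (against 4.99%). At 1.5 h 5 were higher, H2ac8, H3c3, H3c11, H4c1 and H3f3aos (13.2%, against 11.4%), and 0 were lower (against 1.83%). At 2 h 6 were higher, H2ac8, H2ac20, H3c3, H3c4, H3c10 and H3f3aos (15.8%, against 9.53%), and H2ac14 and H4c11 were lower (5.26%, against 3.49%). Each of these counts lies within 3 genes of the number that the share of all genes would give for 38, and none is read as particular to histone genes. With library totals divided out, 3 were higher (H2ac8, H3c3 and H3f3aos) and 3 lower (H2ac4, H2ac6 and H2ac14) at 0.5 h, against 4.27% and 3.4% of all genes. At 1 h 2 were higher (H2ac8 and H3c10) and 0 lower, against 4.24% and 4.99%. At 1.5 h 1 was higher (H3c3) and 1 lower (H4c11), against 5.68% and 4.8%, and at 2 h 4 were higher (H3c3, H3c4, H3c10 and H3f3aos) and 2 lower (H2ac14 and H4c11), against 5.35% and 6.05%. In any later library, by the deposited values, 11 of 38 were past 2-fold (28.9%, against 22.7%), and 10 of these 11 were replication-dependent.

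**Figure D4:**
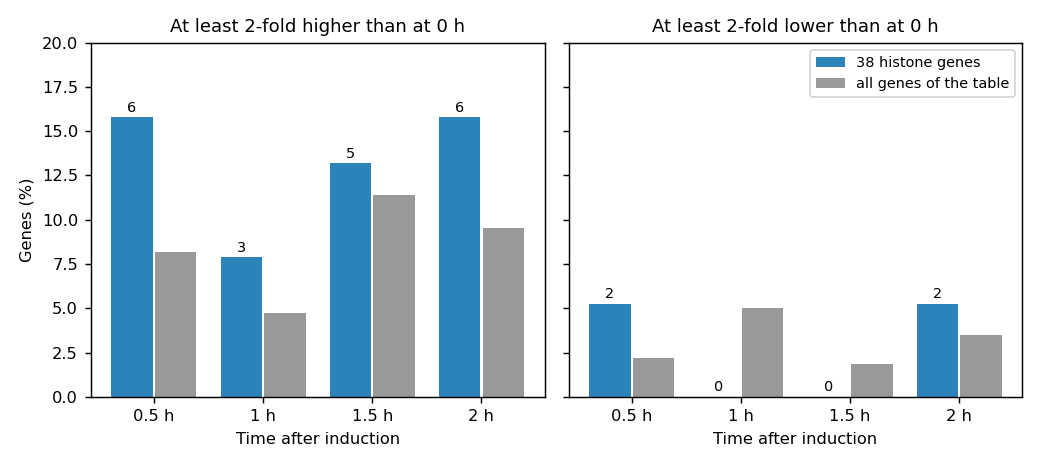
Percentage of genes at least 2-fold higher (left) or lower (right) than at 0 h at each later time, for the 38 histone genes (blue, with their number above each bar) and all genes of the table (grey), from 1 library per time. The largest gap is at 0.5 h, 15.8% against 8.18% for higher genes.

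Of the 31 replication-dependent genes, 7 had more entries than at 0 h in all 4 later libraries (H2ac8, H2ac13, H2ac20, H3c1, H3c11, H4c1 and H4c12), against 9.65% of all genes, and 2 had fewer in all 4 (H2ac7 and H4c11), against 6.95%. With library totals divided out, 5 were higher in all 4 (the same genes without H3c1 and H4c12), against 7.17% of all genes, and 13 lower, against 41.7%. These comparisons share the 0 h library, so a single low or high value there enters all 4. Among the 27 not at 0 throughout, 12 stayed within 1 entry over the 5 libraries. The matching share of all genes was not computed, so this does not show histone genes to be more or less stable than others.

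The genes that make, process and deliver histones were taken from a list of transcription factors of histone genes, 3′ end processing factors and chaperones. A site was found for 37 of 57 listed symbols, some of them older names of the same gene. Of these 37, 36 were covered in all 5 libraries (97.3%, against 69% of all genes), and 7 were at least 2-fold different at some later time (18.9%, against 22.7%). Npat, the coactivator that cyclin E and Cdk2 switch on to drive histone transcription, had 3 entries at 0 and 0.5 h and 1 at 1, 1.5 and 2 h. Sympk, the scaffold of the complex that cleaves histone pre-mRNA, had 1, 3, 3, 3 and 4, while Cpsf1, a subunit of the cleavage and polyadenylation factor, had 1 except for 3 at 1 h. Ncbp2, a subunit of the cap-binding complex, had 3, 2, 2, 1 and 1.

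Chaperones and transcription factors of that list differed among themselves. Daxx, which deposits H3.3 with Atrx, had 3, 4, 3, 5 and 1 entries, and Atrx had 3, 2, 3, 2 and 3. Nap1l1, a chaperone of H2A and H2B, had 1, 1, 1, 3 and 2, and Anp32e, which removes H2A.Z, had 0 except for 1 at 1.5 h. Asf1b, a chaperone of H3 and H4, had 1 entry in every library, and Pou2f1, which encodes the octamer-binding Oct-1, had 3. Nfya, a subunit of the CCAAT-binding NF-Y, had 4 at 0 h and 5 at each later time. The other NF-Y subunits on the list went the other way, Nfyb with 3, 2, 2, 2 and 2 entries and Nfyc with 3, 2, 2, 3 and 2. More entries than at 0 h were held by 11, 10, 13 and 7 of the 37 at 0.5, 1, 1.5 and 2 h. Of all genes, 28.1%, 20.6%, 31.3% and 25.7% held more. Fewer were held by 9, 9, 8 and 13 of the 37, and by 15.6%, 22%, 17.9% and 22.9% of all genes. Library totals were not divided out in these counts.

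The table bears little on the identity of the cells. Of 10 neural progenitor markers 5 had a site: Hes1 had 1 entry in every library, Pax6 and Msi1 had 0, Nes had 0 except for 2 at 1.5 h, and Notch1 had 0, 1, 0, 1 and 3. Of the markers of other cell types, 3 of 5 neuronal, 4 of 6 oligodendrocyte lineage, 1 of 5 microglial and blood, 0 of 5 astrocyte, 0 of 4 mesenchymal and 0 of 3 endothelial ones had a site. Pdgfra had 3 or 4 entries, and Map2 and Cx3cr1 had 2, in every library. Syp had 1, 1, 0, 1 and 1, and Rbfox3, Olig1, Olig2 and Mbp had 0.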

How the data were processed

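ATAC-seq libraries of C17.2 cells at 5 times after induction, 1 per time, were compared at sites annotated with histone genes. The authors deposited a table of 34714 sites with a whole number per site and library, in columns named after BED files per the file headers. Per the submitters' processing notes, Bowtie2, MACS2 and deepTools were used with GRCm38 (mm10), with no versions, settings or order. The sources used here do not say how reads were shifted or filtered. Read depth is unknown, so no interval on a value is given, and a site at 0 is not shown to be closed.

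The members and lists were chosen with earlier results of these data known. Named genes followed a rule: every variant, replication-dependent genes at least 2-fold different at a later time or with the 5 highest means, those at 0 throughout, and genes of the supply list at least 2-fold different. Further members are named to account for all 38, and Asf1b, Atrx, Nfya, Nfyb, Nfyc and Pou2f1 were added after their values were seen. Ratios were taken on log2(entries + 1). A gene with several sites took that with the highest mean over the 5 libraries. Clusters were runs of at least 3 genes with gaps of at most 1 Mb. Positions and promoter sequences come from RefSeq tables of GRCm38.p6, in which 37 of 38 members were found, 33 by their own symbol. Sites were placed from the RefSeq start nearest to them. The code of the calling steps was run on simulated data in which altered genes passed the 2-fold threshold by construction and no noise was added. That run checks the code only, not the error of calls on these data. Python 3.11.15, pandas 2.3.3 and numpy 2.4.6 were used. Alternatives were the site nearest the start, the mean over sites, a pseudocount of 0.5, division by library totals, a filter on low means, a minimum of 2 entries, merged sites, other thresholds and members near their reference gene. Sums by type and run with library totals divided out were added after seeing the data.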

Additional observations from a re-analysis of the deposited data

How the results depend on the processing

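No paired analysis was possible because each time had 1 library, and for the same reason no library could be left out. Of 144 recomputed values 117 kept their size within 1.5 times, or within the 95% binomial interval of the median for log2 ratios, and 27 moved. None changed sign between called values. With library totals divided out, 3 members were at least 2-fold higher at 0.5 h in place of 6, 1 at 1.5 h in place of 5 and 1 was lower at 1.5 h in place of 0. The median log2 ratio at 1, 1.5 and 2 h was then −0.02, −0.03 and −0.15, with −0.05, −0.17 and −0.25 for all genes. Among the 21 members whose mean reached that of the median gene (2.2 entries), 0 were lower at 0.5 h, 3 higher and 1 lower at 2 h, and the median at 0.5 h was 0.42. This filter uses the mean over all 5 libraries, that of 0.5 h included. No share or median of all genes under it is given, so these values are not read as particular to histone genes. Merged to 37 regions, the covered number was 30, 31, 31, 31 and 32 in order of time, since 76 sites collapse into fewer units. Counting any difference gave 15 higher and 9 lower at 0.5 h, 13 and 7 at 1 h, 16 and 8 at 1.5 h, and 15 and 11 at 2 h. A difference of 3 or more entries left 1 lower at 0.5 h, 1 higher at 1 h, 2 at 1.5 h and 2 at 2 h, with no share of all genes given beside them. Where not set by fewer units or another threshold, the cause was not tested. The pseudocount of 0.5, the choice of site, the covered minimum of 2 entries, the limit to the 37 members near their reference gene, and the removal of H3f3aos and Hist1h2al, chosen after seeing the data, left every value within these bounds. Values of 0 to 6 entries in single libraries limit all comparisons, and a step of 1 entry has no known error.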

Other observations

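Several histone genes were covered under other symbols. On chromosome 3, sites named Gm20628 overlap H3c13 and held 4, 4, 5, 6 and 5 entries at 0, 0.5, 1, 1.5 and 2 h. Sites named Gm15444, beside H2ac20 and H2ac21, had the values of H2ac20 (2, 4, 4, 4 and 5). Sites named Gm20634, in H3c14, were at 0 in every library except for 2 entries at 1 site at 1.5 h, and those of Gm20632, beside H2ac19, ranged from 0 to 2.

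Some variant genes have symbols that the rule did not take in. H2aj, an H2A variant gene, had 4, 2, 1, 2 and 1 entries at 3 of its sites, the most at 0 h. Macroh2a1, which encodes a macroH2A of silent chromatin, had 2, 4, 1, 2 and 3 at 2 of its sites and 0, 4, 0, 2 and 3 at 4 others. Macroh2a2 had 4, 3, 4, 3 and 4. Macroh2a1, like H3f3a, H2az2 and the chosen site of H1f10, had its highest value in the 0.5 h library. H3f3b, H2az1, H2aj and Macroh2a2 did not, and H2ax held its highest value at 0, 0.5 and 1.5 h alike. H2aj, Macroh2a1 and Macroh2a2 were picked after their values were seen and were not compared with all genes.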
